A study of Drosophila melanogaster with 12 samples.

Results

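Eye-antennal discs of ey > wge larvae with the alleles Su(var)3-9[1]/[2], called allele-pair discs here, were compared with discs of the 2 parental control lines, ey-Gal4 and UAS-wge. The arrays were chosen by their sample titles: 3 allele-pair arrays and 6 control arrays, 9 of the 12 arrays in the series. The remaining 3 arrays, from ey > wge discs, entered the fit for its estimate of the spread, and their values stand beside the main ones. Allele-pair larvae carried the driver ey-Gal4, the transgene UAS-wge and both alleles, Su(var)3-9[1] over Su(var)3-9[2]. The ey > wge larvae carried the driver and the transgene without the alleles, and the control larvae carried the driver alone or the transgene alone. All larvae were wandering and of the third instar, raised at room temperature. RNA of 30 pairs of discs went onto each array, from 100 ng of total RNA in every case, and each genotype had 3 biological replicates.

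The design sets limits on what the comparison can separate. Each difference from the parental lines joins the effect of winged eye, of the alleles and of the stock that carries them, and these cannot be told apart, because no group carried the alleles without ey > wge. The driver uses an enhancer of eyeless and is active in the eye disc, while the alleles are present in every cell of the larva. What each allele does to the Su(var)3-9 protein was not recorded in the sources used here. In whole discs, fewer cells of a type and less RNA per cell cannot be told apart.

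Winged eye (wge) encodes a chromatin protein with a bromo-adjacent homology domain, and its forced expression in the eye disc turns part of the tissue towards a wing-like fate, which is called transdetermination. Su(var)3-9 is a methyltransferase that places the heterochromatic mark on lysine 9 of histone H3. In a normal eye-antennal disc the transcription factors Toy, Ey, Eya, So and Dac specify the retina, a wave of differentiation led by Ato, Hedgehog, Egfr and Notch signalling then produces photoreceptors, and the antennal part is patterned by Dll, Ss, Hth, Dan and Danr.

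Before the genes are described, the behaviour of the arrays is given, because the allele-pair arrays stood apart from one another. The values are MAS5 signals, an intensity scaled per array, and changes are on the log2(signal + 16) scale, which understates the change of dim genes. The median signal over all probe sets was 44.4, 33 and 34 on allele-pair arrays 1, 2 and 3, against 38.7 to 43.7 on the other 9 arrays. The median within-group SD of log2 signal was 0.36 in allele-pair discs, 0.24 in ey > wge discs, 0.25 in ey-Gal4 discs and 0.23 in UAS-wge discs. On the first principal component, which held 22% of the variance, the allele-pair arrays lay at 18.2, 53.6 and 70.7, and the other 9 arrays between -29.9 and 2.79. The deviation of a probe set from the controls also moved with the genomic span of its gene. Over 10726 probe sets the Spearman correlation was -0.0983, -0.322 and -0.408 on allele-pair arrays 1, 2 and 3, against -0.0905 to 0.113 on the other 9 arrays. When the probe sets were split by span into 10 groups of like size, the group of shortest genes, with a median span of 717 bases, deviated by a median of 0.12, 0.25 and 0.28, and the group of longest genes, with a median span of 47357 bases, by -0.08, -0.47 and -0.71. The 3′ to 5′ signal ratio of Act5C was 5.69, 5.85 and 6.99 on the allele-pair arrays, inside the range of 4.10 to 12.8 on the other arrays. The part of span, RNA quality or dissection in the results was not tested. A value "with the span trend removed" was computed after each array's trend with span had been subtracted, and is given beside each median of a list against the controls.

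**Figure D1:**
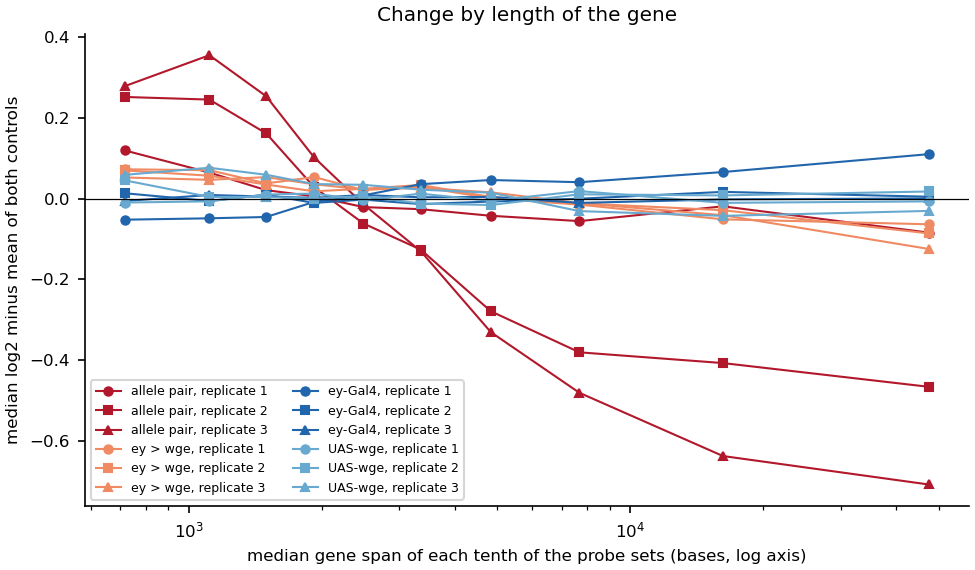
Median difference from the controls (log2, y axis) of probe sets split into 10 groups by the genomic span of their gene (median span in bases, log x axis), with 1 line per array, coloured by genotype. Allele-pair arrays 2 and 3 run from 0.25 and 0.28 for the shortest genes to -0.47 and -0.71 for the longest, allele-pair array 1 from 0.12 to -0.08.

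The discs of the allele pair differed from those of the parental lines in 2583 of 18769 probe sets (13.8% at an adjusted p under 0.05), with 1055 higher (5.62%) and 1528 lower (8.14%). Among these, 153 were higher by at least 2-fold (0.815%) and 677 lower by at least 2-fold (3.61%). At an unadjusted p under 0.05 the count was 4719 (25.1%). The median over all probe sets was -0.06, and the balance of directions depended on the scaling. After each array was centred on its median, which moved the median of all probe sets to 0.06, 1256 probe sets were higher and 1096 lower. After quantile normalization 1151 were higher and 1173 lower. With the span trend removed, 1034 were higher and 944 lower of 13543 probe sets. The 3 allele-pair arrays all lay above all 6 control arrays for 894 probe sets (4.76%) and all below them for 1384 (7.37%), and 667 (3.55%) and 1019 (5.43%) of these were also past the test.

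Each control line gave its own counts. Against ey-Gal4 discs 836 probe sets were higher (4.45%) and 1284 lower (6.84%), and against UAS-wge discs 764 were higher (4.07%) and 1176 lower (6.27%). Past the test in the same direction against both lines separately were 400 higher (2.13%) and 708 lower (3.77%), and 30 probe sets (0.16%) went opposite ways. Between the lines themselves, UAS-wge minus ey-Gal4, 280 probe sets were higher (1.49%) and 327 lower (1.74%), and 259 of the probe sets called in the allele pair (1.38% of all) were among these. Against ey > wge discs the allele-pair discs were higher in 218 probe sets (1.16%) and lower in 473 (2.52%). The ey > wge discs were higher than the controls in 101 probe sets (0.538%) and lower in 236 (1.26%), a comparison that shares the 6 control arrays with the main one. Counted with 1 probe set per gene over 11982 genes, the main comparison gave 846 higher (7.06%) and 1162 lower (9.7%). Against ey-Gal4 it was 686 (5.73%) and 973 (8.12%), and against UAS-wge 622 (5.19%) and 908 (7.58%). Against ey > wge it was 174 (1.45%) and 337 (2.81%), and for ey > wge against the controls 81 (0.676%) and 190 (1.59%). The counts of gene lists given from here on stand against these shares.

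Replicate by replicate, array 1 lay nearest to the controls among the called probe sets and array 3 farthest. The 1055 probe sets called higher deviated by a median of 0.33 on array 1, 0.62 on array 2 and 0.79 on array 3. Those called lower deviated by medians of -0.55, -0.96 and -1.19. Of the probe sets called higher, 722 lay above every control array on array 1, 974 on array 2 and 992 on array 3. Of the 1528 called lower, 1069, 1454 and 1471 lay below every control array. Taken singly, array 1 had 906 probe sets at least 2-fold above the control mean and beyond every control array, and 585 below in the same way. Array 2 had 500 above and 1337 below, and array 3 had 679 above and 1804 below. In this count array 1 was the only allele-pair array with more probe sets above than below. The 3 ey > wge arrays had 505 to 527 above and 497 to 626 below.

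All 3 arrays lay beyond the control range in 667 of the higher calls, 2 arrays in 322, 1 array in 43 and none in 23. Among the lower calls these numbers were 1019, 447, 43 and 19. The number of calls rested on single arrays. Without allele-pair array 1 the count was 3895 probe sets, without array 2 it was 1446 and without array 3 it was 1381. Called in the main fit and also in each of these 3 fits were 417 higher (2.22%) and 702 lower (3.74%). With a separate weight for each genotype, which lets the allele-pair arrays vary more than the rest, 796 were higher (4.24%) and 1161 lower (6.19%).

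**Figure D2:**
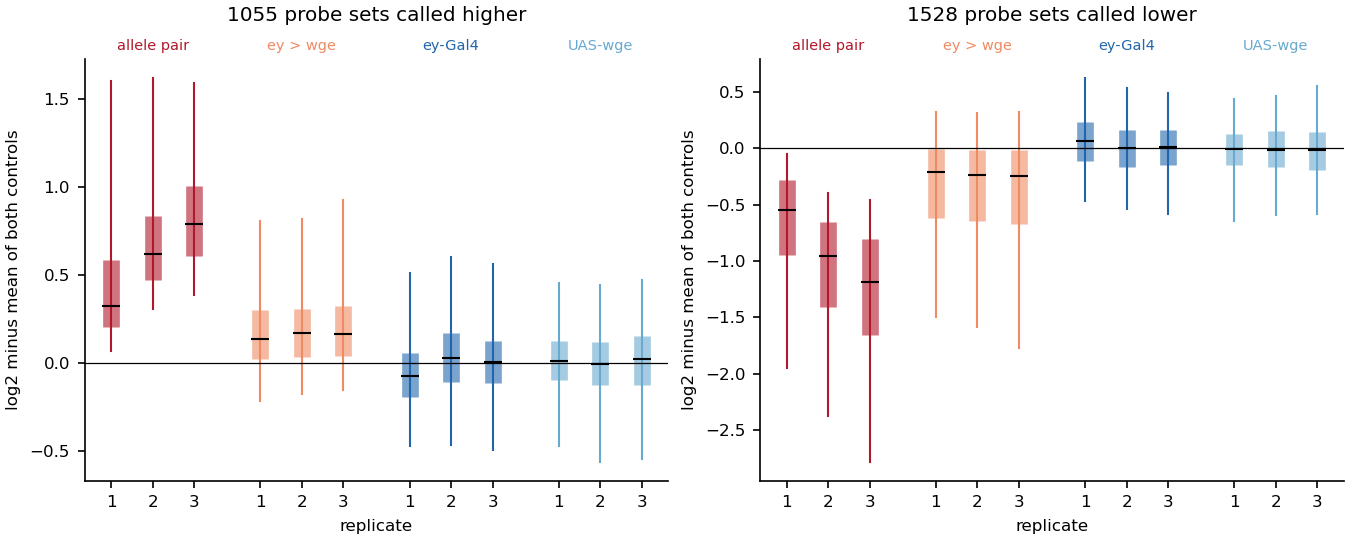
Deviation from the control mean (log2, y axis) of the probe sets called higher (left panel) and called lower (right panel) on each of the 12 arrays (x axis, grouped by genotype, allele pair at the left of each panel). Boxes show the middle 50% with the median, whiskers the 5th and 95th percentiles. The allele-pair medians lie at 0.33, 0.62 and 0.79 among the higher calls and at -0.55, -0.96 and -1.19 among the lower calls.

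The labelled tissue was checked against markers of both parts of the disc. Of the eye markers, toy, ey, so, eya, gl, ato and elav all gave signals above the median of their array on all 12 arrays, and all were lower in allele-pair discs, as described next. Of the antennal markers, Dll gave 1869.6, 2187 and 1869.5 in allele-pair discs, 1469, 1931 and 1827 in ey > wge discs and 1481 to 1993 across the control arrays (change 0.15 ± 0.12, adjusted p = 0.515). The signal of ss was 971, 983 and 708 in allele-pair discs and 906 to 1379 across the controls (adjusted p = 0.184), so the groups overlapped for both genes. No probe set names hth or Su(var)3-9 alone, so neither has a value here. The probe set of wge read 875, 672 and 443 in allele-pair discs, 925, 1115 and 1162 in ey > wge discs, 776, 810 and 951 in ey-Gal4 discs and 801, 931 and 827 in UAS-wge discs. Its change against the controls was -0.40 ± 0.17 (adjusted p = 0.141), below the threshold without array 1 (adjusted p = 0.00661) and with array weights (adjusted p = 0.0356), and its difference from ey > wge was -0.72 ± 0.19 (adjusted p = 0.0492). Whether that probe set lies inside the transgene was not given in the sources used here, so it does not check the overexpression.

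Genes of retinal determination fell. Of the 13 genes of that list with a probe set, 0 rose and 8 fell, against 7.06% of all 11982 genes higher and 9.7% lower, and the 8 remained called without any 1 of the allele-pair arrays (in each of the 3 fits that leave 1 of them out) and with genotype weights. The median change of the list was -1.12, with -1.07, -1.09 and -1.41 on the 3 arrays and -1.15 with the span trend removed, beside -0.05 over all genes. The Pax6 homologue twin of eyeless (toy), which acts at the top of the network, gave 2301, 1976 and 1764 in allele-pair discs, 3295, 2971 and 2836 in ey > wge discs, 8088, 7241 and 7814 in ey-Gal4 discs and 9444, 9242 and 8718 in UAS-wge discs. It changed by -2.06 ± 0.10 (adjusted p = 1.25e-09), and every allele-pair array lay below every ey > wge array, with a difference of -0.59 ± 0.12 (adjusted p = 0.0097).

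Eyeless itself (ey), the other Pax6 gene and the source of the driver's enhancer, gave 332, 330.3 and 213 in allele-pair discs, 343 to 565 in ey > wge discs and 789.5 to 1101 across the controls (change -1.63 ± 0.17, adjusted p = 4.79e-06). The homeobox gene so, partner of Eya, gave 523, 335 and 333 in allele-pair discs and 1271 to 1555 in controls (change -1.82 ± 0.15, adjusted p = 4.04e-07). For eya, a transcriptional coactivator and phosphatase, the signals were 1142, 1641 and 686 in allele-pair discs and 2854 to 4172 in controls (change -1.67 ± 0.19, adjusted p = 1.72e-05). None of these allele-pair ranges touched the control range. The nuclear protein gene dac gave 2112, 1707 and 1379 in allele-pair discs, 1669 to 1874 in ey > wge discs and 3382 to 6344 in controls (change -1.55 ± 0.17, adjusted p = 1.31e-05). The pipsqueak-type genes dan and danr, which act in both eye and antenna, changed by -1.60 ± 0.13 (adjusted p = 2.39e-07) and -1.12 ± 0.13 (adjusted p = 2.32e-05). In so, dac, dan and danr the difference between allele-pair and ey > wge discs did not pass the test, at -0.42 ± 0.17, -0.07 ± 0.20, 0.29 ± 0.15 and 0.21 ± 0.15.

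Photoreceptor genes fell as a group. Of 30 measured genes of photoreceptor specification and structure, 0 rose and 23 fell, 22 of them also without any 1 allele-pair array, with a median of -1.36 over the list (-1.25, -1.40 and -1.93 by array, -1.08 with the span trend removed). The proneural gene ato, which selects the founder photoreceptor, gave 874, 1150.3 and 1183 in allele-pair discs and 1657 to 2267 in controls (change -0.95 ± 0.12, adjusted p = 5.57e-05). Glass (gl), a zinc finger factor needed for photoreceptor maturation, gave 716, 890 and 465 in allele-pair discs, 834, 849 and 719.6 in ey > wge discs, 3324, 3633 and 4164 in ey-Gal4 discs and 3091, 3932 and 3797 in UAS-wge discs. That was a change of -2.42 ± 0.16 (adjusted p = 4.16e-08), and the allele-pair and ey > wge ranges overlapped (difference -0.25 ± 0.18, adjusted p = 0.529). Chaoptin (chp), a surface glycoprotein of photoreceptor membranes, gave 128, 77.8 and 67.3 in allele-pair discs, 346, 350.1 and 341 in ey > wge discs and 399 to 1087 in controls. It changed by -2.71 ± 0.19 against the controls (adjusted p = 7.16e-08) and was also below ey > wge by a tested difference of -1.80 ± 0.22 (adjusted p = 0.000189). The zinc finger gene peb (hindsight), active in photoreceptors and in trachea, changed by -2.68 ± 0.21 (adjusted p = 1.92e-07), with signals of 142 to 284 in allele-pair discs and 1043 to 1916 in controls. In ey > wge discs 19 of the photoreceptor genes were lower than the controls, with a median of -1.25.

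Genes of neurons followed. In the list of neuronal and synaptic genes 14 of 25 fell and 1 rose, with a median of -1.38 (-0.87, -1.44 and -1.32 by array, -1.09 with the span trend removed), and 10 of the falls were called without any 1 allele-pair array. The RNA-binding protein Elav, the standard marker of neurons, had signals of 325, 224 and 206 in allele-pair discs, 422, 300.1 and 218 in ey > wge discs, 1617, 1467 and 1106 in ey-Gal4 discs and 846, 1023 and 959.6 in UAS-wge discs (change -2.13 ± 0.19, adjusted p = 1.09e-06). The microtubule-binding protein gene futsch gave 140.2, 74.2 and 47.2 in allele-pair discs, 320.1, 364 and 292 in ey > wge discs and 789.5 to 1698 in controls (change -3.59 ± 0.21, adjusted p = 1.05e-08). Appl, the fly homologue of the amyloid precursor protein, changed by -3.43 ± 0.27 (adjusted p = 2.83e-07), and nrv3, a sodium pump subunit of neurons, by -2.21 ± 0.21 (adjusted p = 1.96e-06). For futsch, Appl and nrv3 every allele-pair array lay below every ey > wge array, with tested differences of -1.82 ± 0.24, -1.71 ± 0.32 and -0.996 ± 0.24 (adjusted p = 0.0004, 0.00643 and 0.0301). The array order was the same in futsch and Appl: array 1 was the highest of the 3 and array 3 the lowest, with 507, 307 and 124 for Appl against 2316 to 4434 in controls.

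Among axon guidance genes 9 of 22 fell and 0 rose (median -0.55, and -0.26 with the span trend removed), and 7 of the falls were called without any 1 allele-pair array. Golden goal (gogo), a receptor that guides photoreceptor axons, had 262, 108 and 50.4 in allele-pair discs, 444, 265 and 301 in ey > wge discs and 1471 to 2302 in controls, and changed by -3.76 ± 0.29 (adjusted p = 2.18e-07). Dscam1, a cell surface receptor with very many isoforms, and caps, a leucine-rich repeat receptor, differed from gogo in where ey > wge stood. Dscam1 gave 566, 394 and 249 in allele-pair discs, 925, 1050.5 and 856 in ey > wge discs and 949 to 1101 in controls (change -1.39 ± 0.18, adjusted p = 5.25e-05), and its difference from ey > wge was -1.26 ± 0.21 (adjusted p = 0.00259). The caps change was -1.38 ± 0.17 (adjusted p = 4.7e-05), and its difference from ey > wge was -1.24 ± 0.20 (adjusted p = 0.00261). In both genes the ey > wge signals lay inside or next to the control range, at -0.13 ± 0.18 and -0.14 ± 0.17 from the control mean. On other caps probe sets the changes against the controls were -0.48 ± 0.19 and -0.77 ± 0.31, and neither passed the test (adjusted p = 0.103 and 0.127). Sema1a, a transmembrane guidance cue, changed by -2.05 ± 0.35 against the mean of the controls (adjusted p = 0.000759), but the control lines differed from each other by 2.005 ± 0.40 (adjusted p = 0.00683), with 51.3, 22.3 and 3.6 in allele-pair discs, 75.7, 44.5 and 64.1 in ey-Gal4 discs and 342, 300.1 and 238 in UAS-wge discs. With a pseudocount of 64 the Sema1a change was -1.26.

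**Figure D3:**
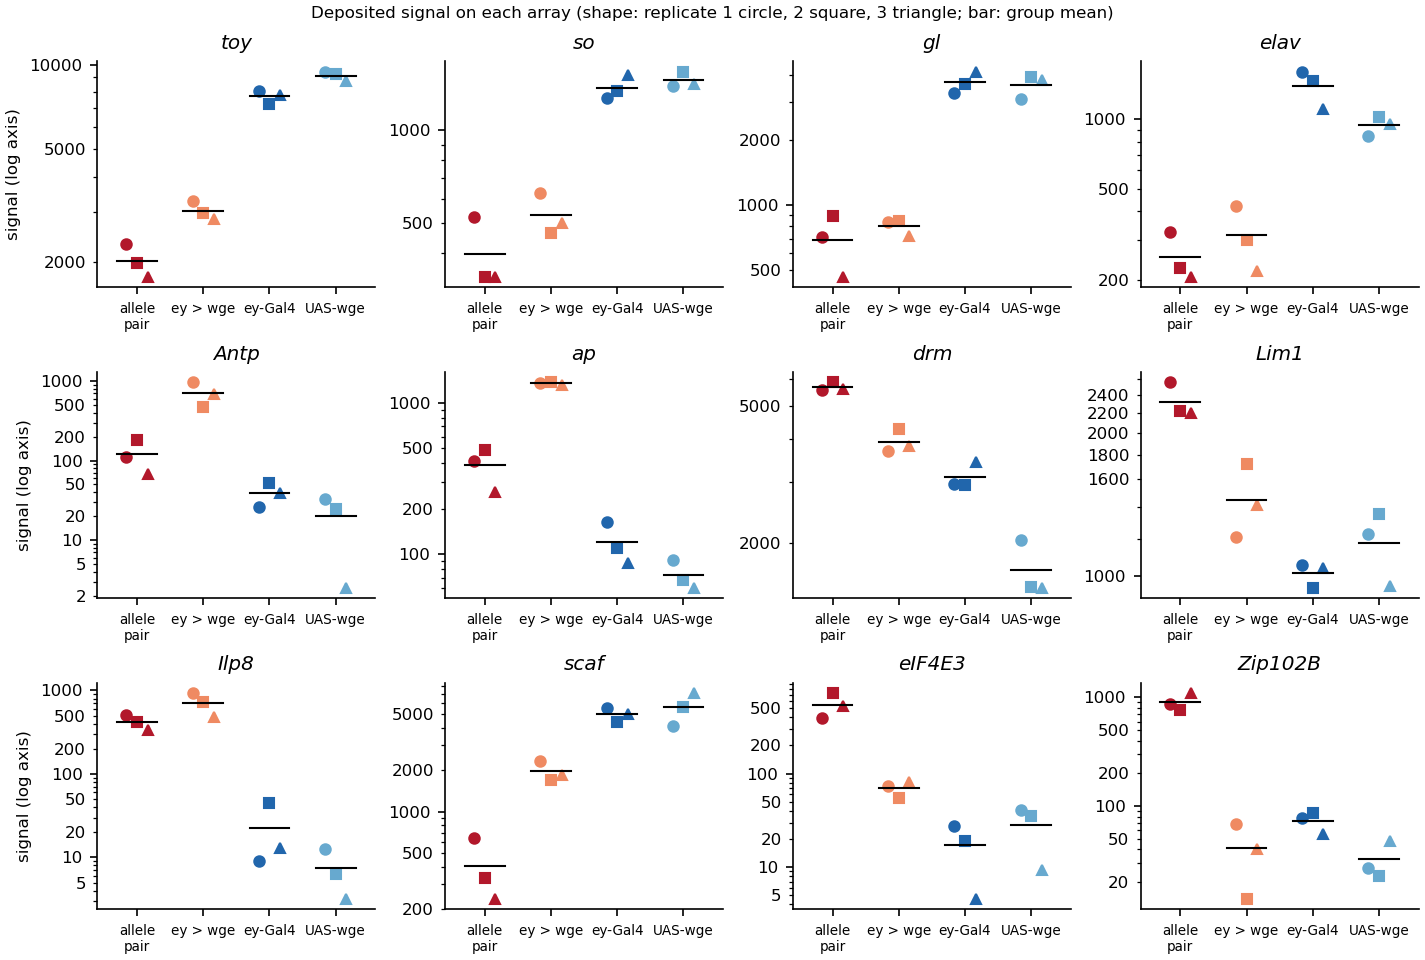
MAS5 signal on each array (log y axis) of 12 genes named in the text, 1 panel per gene, with 1 point per array and a bar at the genotype's mean, allele pair at the left. In allele-pair discs toy, so, gl, elav and scaf lie below both control lines, and Antp, ap, drm, Lim1, Ilp8, eIF4E3 and Zip102B lie above them, with the allele pair below ey > wge in Antp and ap.

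Genes that specify other body parts changed in both directions. Antp, the Hox gene of the thorax, is normally nearly silent in the eye-antennal disc. Its probe set of higher mean gave 112, 181 and 67.6 in allele-pair discs, 963, 476 and 684 in ey > wge discs, 26.1, 51.9 and 39.6 in ey-Gal4 discs and 32.6, 24.7 and 2.5 in UAS-wge discs. The change against the controls was 1.60 ± 0.36 (adjusted p = 0.00697), and the allele-pair discs were below ey > wge discs by a tested difference of -2.44 ± 0.42 (adjusted p = 0.00423). All 3 allele-pair arrays lay above the controls and below the ey > wge arrays. Against ey-Gal4 alone the difference was 1.24 ± 0.42 and did not pass the test (adjusted p = 0.0686). Against UAS-wge alone it was 1.95 ± 0.42 (adjusted p = 0.00621). The call against the controls was lost without array 2 (adjusted p = 0.0701), and the change was 2.24 with a pseudocount of 1 and 0.95 with 64. Another Antp probe set changed by 1.92 ± 0.37 (adjusted p = 0.00229), with 77.1, 114 and 103 in allele-pair discs and 809.6, 441 and 698 in ey > wge discs, and kept its call without array 2 (adjusted p = 0.02). With a pseudocount of 1 or 64 that change was 3.07 or 1.024. A further, dim Antp probe set changed by 0.04 ± 0.42 and did not pass the test (adjusted p = 0.975). Its mean signal was 19.5 in allele-pair discs and 33.6 in ey > wge discs. Of the 4 Hox genes with a probe set, 2 rose and 0 fell, and 0 of these rises were called without any 1 allele-pair array. The other, Dfd, a head Hox gene, changed by 0.40 ± 0.13 (adjusted p = 0.0481), a call lost without any 1 of 11 arrays, UAS-wge replicate 1 being the exception (adjusted p between 0.0593 and 0.111), with genotype weights (adjusted p = 0.108), without a trend in the variance prior (adjusted p = 0.129) and with only the 9 arrays compared (adjusted p = 0.0813). With the span trend removed the Dfd change was 0.65. The Dfd difference was 0.60 ± 0.15 against ey-Gal4 alone (adjusted p = 0.0127) and 0.19 ± 0.15 against UAS-wge alone (adjusted p = 0.515).

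In the wing list 5 of 21 measured genes rose and 5 fell, with a median of -0.29 (0.00 with the span trend removed). Apterous (ap), the selector of the dorsal wing, gave 411, 489 and 259 in allele-pair discs, 1356, 1368 and 1314 in ey > wge discs, 163, 109.9 and 88.1 in ey-Gal4 discs and 91.1, 67.8 and 59.9 in UAS-wge discs. It changed by 1.85 ± 0.22 against the controls (adjusted p = 2.32e-05) and by -1.80 ± 0.25 against ey > wge (adjusted p = 0.000692), so its signal stood between the parental lines and ey > wge with no overlap on either side. A dimmer ap probe set changed by 0.91 ± 0.32 against the controls and did not pass the test (adjusted p = 0.0718). The proneural genes of sensory bristles differed from ap in where they stood against ey > wge. Achaete (ac) gave 1006, 1519.7 and 1732 in allele-pair discs, 780.5, 804 and 706 in ey > wge discs and 420 to 589.8 in controls, above both (change 1.40 ± 0.15, adjusted p = 7.09e-06; difference from ey > wge 0.85 ± 0.17, adjusted p = 0.0115). Scute (sc) changed by 1.05 ± 0.19 (adjusted p = 0.00143), and its difference from ey > wge of 0.64 ± 0.22 did not pass the test (adjusted p = 0.125). The zinc finger gene esg, active in imaginal cells, changed by 0.63 ± 0.11 (adjusted p = 0.00107). Over the wing list, allele-pair discs were above ey > wge discs in 1 gene and below them in 8, with a median difference of -0.64.

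Of 15 measured notum and hinge genes, 2 rose (13.3%) and 1 fell (6.67%), beside 7.06% and 9.7% of all genes. The median of the list was 0.02 (0.10 with the span trend removed). The Iroquois gene ara gave 489.6, 457 and 565 in allele-pair discs, 537, 417 and 519 in ey > wge discs and 259.8 to 316 in controls (change 0.75 ± 0.15, adjusted p = 0.00278). The GATA factor gene pnr, which patterns the dorsal thorax and the dorsal head, gave 1075, 1067 and 1121 in allele-pair discs and 545 to 942 in controls (change 0.55 ± 0.12, adjusted p = 0.00594). Against ey-Gal4 alone the pnr difference was 0.77 ± 0.14 (adjusted p = 0.00176). Against UAS-wge alone it was 0.33 ± 0.14 and did not pass the test (adjusted p = 0.168). The fall in zfh1, a gene of mesodermal cells that the myoblast list also holds, was -1.30 ± 0.34 (adjusted p = 0.0163), and was lost without array 2 or array 3 (adjusted p = 0.0739 and 0.132) and without a trend in the variance prior (adjusted p = 0.0698).

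Among genes of the distal leg and of leg joints 9 of 20 rose and 3 fell, 7 and 3 of them without any 1 allele-pair array, with a median of 0.27 (0.54 with the span trend removed). The odd-skipped family gene drm, which acts in joint formation and at the disc margin, gave 5563, 5861 and 5592 in allele-pair discs, 3696, 4286 and 3822 in ey > wge discs, 2968, 2937 and 3425 in ey-Gal4 discs and 2040.5, 1480.2 and 1476 in UAS-wge discs. It changed by 1.32 ± 0.11 (adjusted p = 6.24e-07) and lay above ey > wge by a tested difference of 0.53 ± 0.13 (adjusted p = 0.0335), with all 3 allele-pair arrays above the other 9. Its relative odd changed by 1.07 ± 0.13 (adjusted p = 2.85e-05). For both genes the control lines differed from each other, with UAS-wge lower by -0.91 ± 0.13 for drm and -0.93 ± 0.15 for odd (adjusted p = 0.000359 and 0.00103), and against ey-Gal4 alone the differences were 0.87 ± 0.13 and 0.60 ± 0.15 (adjusted p = 0.000328 and 0.0139). The leg list also holds ap and dac, given above. In the antennal and head list 2 of 14 rose and 4 fell, 1 and 4 of them without any 1 allele-pair array, and the median of -0.32 became -0.04 with the span trend removed. Lim1, a LIM homeobox gene of the antenna and leg, gave 2553, 2221 and 2199 in allele-pair discs, 1211, 1719 and 1410.4 in ey > wge discs and 946 to 1352 in controls (change 1.08 ± 0.13, adjusted p = 2.97e-05), above ey > wge by a tested 0.69 ± 0.15 (adjusted p = 0.0186). A dimmer Lim1 probe set changed by 0.42 ± 0.26 against the controls and did not pass the test (adjusted p = 0.366). The homeobox gene B-H1, which acts in the antenna, in distal leg segments and in photoreceptors, gave 447, 563 and 472 in allele-pair discs, 1038, 708 and 881 in ey > wge discs and 879 to 1253 in controls (change -1.07 ± 0.15, adjusted p = 0.000153).

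Damage and stress signals had 1 very large rise. Ilp8, the relaxin-like hormone that injured or overgrowing discs release to delay metamorphosis, gave 505, 415 and 341 in allele-pair discs, 928, 718 and 480.2 in ey > wge discs, 9, 45 and 12.8 in ey-Gal4 discs and 12.6, 6.4 and 3.2 in UAS-wge discs. It changed by 3.92 ± 0.32 against the controls (adjusted p = 3.36e-07), and by 5.14 or 2.62 with a pseudocount of 1 or 64. The allele-pair and ey > wge ranges overlapped (difference -0.70 ± 0.37, adjusted p = 0.339). Of 22 measured genes of the JNK and damage response, 5 rose and 5 fell, 4 and 3 of them without any 1 allele-pair array, with a median of -0.01 (0.15 with the span trend removed). Scarface (scaf), a secreted protease homologue and JNK target, went the opposite way to Ilp8: 649.6, 331 and 236 in allele-pair discs, 2305, 1692 and 1843 in ey > wge discs and 4119 to 7106 in controls. Its change was -3.76 ± 0.23 (adjusted p = 1.69e-08) and its difference from ey > wge -2.33 ± 0.26 (adjusted p = 0.000101). The matrix metalloproteinase gene Mmp2 gave 185, 137 and 120.5 in allele-pair discs, 242 to 353 in ey > wge discs and 975 to 1544 in controls (change -2.997 ± 0.17, adjusted p = 1.05e-08).

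The regeneration gene rgn shows how the choice of control matters. It gave 2002, 1496 and 1268 in allele-pair discs, 2916, 2921 and 2778 in ey > wge discs, 5227, 5462 and 7019 in ey-Gal4 discs and 102, 76 and 74.7 in UAS-wge discs. Against the mean of the lines it was higher by 1.04 ± 0.15 (adjusted p = 0.000138), yet it was lower than ey-Gal4 by -1.90 ± 0.17 (adjusted p = 1.25e-06) and higher than UAS-wge by 3.99 ± 0.17 (adjusted p = 1.98e-10). The lines differed from each other by -5.88 ± 0.17 (adjusted p = 6.26e-13). Of 9 measured JAK/STAT genes none passed the test in either direction, and the smallest adjusted p was that of the cytokine gene upd1, with 104, 166 and 103 in allele-pair discs, 205.3, 189 and 343 in ey > wge discs and 40.8 to 78.2 in controls (change 0.84 ± 0.30, adjusted p = 0.0759). For upd1 the allele-pair arrays all lay above the 6 control arrays, and the adjusted p was below the threshold after quantile normalization (0.02), with the span trend removed (0.0307), with array weights (0.00505) and with filters at the 40th and 60th percentile of signal (0.0355 and 0.0275), and was 0.157 with genotype weights.

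Of 22 measured Notch pathway genes 4 rose and 6 fell, 3 and 4 of them without any 1 allele-pair array, and 7 were above ey > wge discs. The Bearded family gene Brd, an inhibitor of the pathway, gave 1009.9, 938 and 1038 in allele-pair discs, 1239 to 1628 in ey > wge discs and 2542 to 3444 in controls (change -1.52 ± 0.11, adjusted p = 9.33e-08). The Notch target E(spl)mdelta-HLH gave 3995, 3211 and 3106 in allele-pair discs, 2782, 2355 and 2072 in ey > wge discs and 6049 to 7023 in controls (change -0.93 ± 0.11, adjusted p = 2.32e-05), below the controls and above ey > wge (difference 0.51 ± 0.13, adjusted p = 0.0325). E(spl)m2-BFM, a Bearded family member of the same complex, gave 5868, 4497 and 3661 in allele-pair discs, 2022, 1394 and 1863 in ey > wge discs and 2187 to 3433 in controls. It was above the controls by 0.75 ± 0.14 (adjusted p = 0.00195) and above ey > wge by 1.39 ± 0.16 (adjusted p = 0.00014), while ey > wge itself differed from the controls by -0.65 ± 0.14 (adjusted p = 0.0207). The coactivator gene mam changed by -1.14 ± 0.21 (adjusted p = 0.00138).

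Genes of the Egfr pathway fell without a rise: 7 of 13 fell and 0 rose, 6 of the falls being called without any 1 allele-pair array, with a median of -0.46 (-0.19 with the span trend removed). The receptor gene Egfr gave 684, 415 and 318 in allele-pair discs, 1024, 905 and 1104 in ey > wge discs and 836 to 1038 in controls (change -1.05 ± 0.18, adjusted p = 0.000789), and its difference from ey > wge was -1.14 ± 0.21 (adjusted p = 0.00558). The feedback inhibitor aos changed by -0.95 ± 0.19 (adjusted p = 0.00286) and the ETS repressor aop by -0.75 ± 0.15 (adjusted p = 0.00298), or by -0.47 with the span trend removed. The ligand gene spi gave 5020.5, 5058 and 5085 in allele-pair discs and 5948 to 7608 in controls (change -0.46 ± 0.09, adjusted p = 0.00282), a fall lost with the span trend removed (adjusted p = 0.212) and with array medians centred (adjusted p = 0.077). In the Dpp list 1 of 14 rose and 2 fell, among them the inhibitory Smad gene Dad, a target of the pathway (change -0.57 ± 0.11, adjusted p = 0.00205, and a change of -0.30 with the span trend removed). Without any 1 allele-pair array 0 of the Dpp rises and 1 of the falls were called. The other falls in smaller pathway lists were 2 of 6 Wingless genes, 4 of 14 Hedgehog genes and 1 of 16 Hippo and Fat genes, with no gene of these 3 lists higher. Without any 1 allele-pair array 0, 1 and 0 of these falls were called.

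A small set of genes differed from the mean of the controls and, the same way, from ey > wge discs. Past the test in the same direction against the mean of the controls and against ey > wge were 190 probe sets higher (1.01%) and 390 lower (2.08%). Zip102B, a zinc transporter family gene of chromosome 4, gave 876, 764 and 1095 in allele-pair discs, 68.4, 14.1 and 40.8 in ey > wge discs, 77.7, 86.6 and 55 in ey-Gal4 discs and 27.2, 22.6 and 48 in UAS-wge discs. Its change was 3.83 ± 0.32 against the controls (adjusted p = 4.81e-07) and 4.13 ± 0.37 against ey > wge (adjusted p = 8.4e-06). The 3 allele-pair arrays were the only bright ones. The cap-binding translation factor gene eIF4E3, known in flies from the testis, gave 390.3, 725 and 524 in allele-pair discs, 73.7, 54.3 and 81.7 in ey > wge discs, 27.7, 19.2 and 4.6 in ey-Gal4 discs and 40.7, 34.9 and 9.3 in UAS-wge discs (change 3.91 ± 0.35, adjusted p = 1.09e-06; difference from ey > wge 2.68 ± 0.41, adjusted p = 0.00141). With a pseudocount of 1 or 64 the change was 4.23 or 3.08 for Zip102B and 4.79 or 2.79 for eIF4E3.

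The nucleic acid sensor gene cGlr2 was dim but separated, with 96.2, 45.4 and 46.1 in allele-pair discs, 5.4, 5.7 and 6.5 in ey > wge discs and 1.3 to 7.6 in controls (change 1.91 ± 0.28, adjusted p = 0.000201; 3.65 with a pseudocount of 1 and 0.87 with 64). CG13029, a gene without a given name, gave 332, 870 and 829 in allele-pair discs, 95.4 to 111 in ey > wge discs, 153 to 214 in ey-Gal4 discs and 30.3 to 42.2 in UAS-wge discs (change 2.64 ± 0.28, adjusted p = 6.44e-06). CG12481 changed by 2.96 ± 0.33 (adjusted p = 1.25e-05) and by 1.91 ± 0.38 against ey > wge (adjusted p = 0.0105). In CG12481 and CG13029 the UAS-wge line was lower than ey-Gal4, by -3.36 ± 0.38 and -1.92 ± 0.32 (adjusted p = 3.03e-05 and 0.00157), so the mean of the controls lies between unlike lines. The ecdysone-responsive gene ImpL1, an imaginal disc gene, rose on the mean of the group, by 2.03 ± 0.36 (adjusted p = 0.00108) and by 2.22 ± 0.42 against ey > wge (adjusted p = 0.00702), with 2222, 2197 and 627 in allele-pair discs and 222 to 729.8 in controls. Allele-pair array 3 of ImpL1 lay inside the control range.

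The odorant-binding protein gene Obp99a gave 10972, 12481 and 18662 in allele-pair discs, 3124, 2892 and 3498 in ey > wge discs, 1293, 1071 and 936 in ey-Gal4 discs and 8566, 8398 and 8113 in UAS-wge discs. It was above the mean of the controls by 2.17 ± 0.14 (adjusted p = 4.16e-08), above ey-Gal4 by 3.63 ± 0.17 and above UAS-wge by 0.71 ± 0.17 (adjusted p = 4.84e-10 and 0.0105), and the lines differed from each other by 2.92 ± 0.17 (adjusted p = 9.88e-09). A line difference of this kind also applied to pastrel (pst), a gene of resistance to viruses in flies, at 2.35 ± 0.18 (adjusted p = 4.44e-07) beside a change of 2.001 ± 0.16 (adjusted p = 2.56e-07). CG31955 changed by 2.12 ± 0.19 (adjusted p = 1.09e-06), with the lines apart by -2.13 ± 0.22 (adjusted p = 1.22e-05). CG34247 changed by 2.04 ± 0.29 (adjusted p = 0.000181) and CG9312 by 2.21 ± 0.34 (adjusted p = 0.00035). The chitinase gene Cht5, which breaks down cuticle at the moult, gave 431, 657 and 448 in allele-pair discs, 202 to 406 in ey > wge discs and 75 to 241 in controls (change 1.96 ± 0.27, adjusted p = 0.000117). Yellow (y), a pigmentation gene of the cuticle, gave 80.7, 114 and 91.5 in allele-pair discs and 2.1 to 41.1 in controls (change 2.02 ± 0.40, adjusted p = 0.00261, and a change of 3.27 or 1.05 with a pseudocount of 1 or 64).

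**Figure D4:**
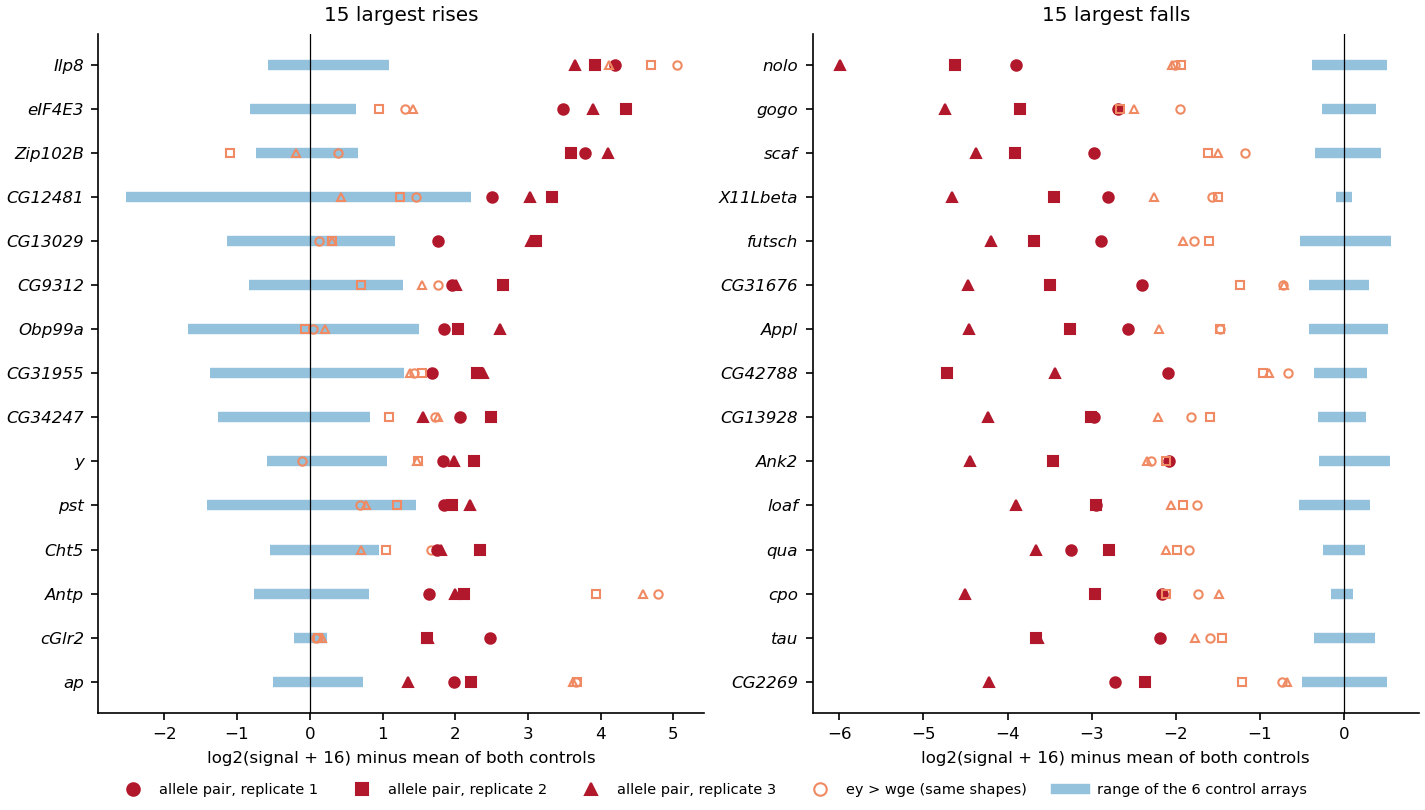
Deviation from the control mean (log2, x axis) of the 15 higher and 15 lower genes with the largest change among those whose 3 allele-pair arrays lie outside the range of all 6 control arrays (1 row per gene), with 1 point for each allele-pair array (filled) and each ey > wge array (open) and a bar over the range of the 6 control arrays. Ilp8, eIF4E3 and Zip102B head the rises at 3.92, 3.91 and 3.83, and nolo the falls at -4.84.

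The 15 falls chosen by the same rule as these rises lay between -4.84 and -3.10, and the 15 rises between 1.85 and 3.92. The gene nolo (no long nerve cord), of the nervous system, gave 60, 29.8 and 1.8 in allele-pair discs, 265, 279 and 259 in ey > wge discs, 852, 1600.5 and 1390.5 in ey-Gal4 discs and 1186, 889 and 957 in UAS-wge discs. Its change of -4.84 ± 0.32 (adjusted p = 4.16e-08) was the lowest of the named genes, and all allele-pair arrays lay below all ey > wge arrays (difference -2.84 ± 0.37, adjusted p = 0.00034). On a pseudocount of 1 its change was -6.00 and on 64 -3.69. Genes of the cytoskeleton of neurons were among the others. The microtubule protein gene tau gave 69.3, 14.6 and 15 in allele-pair discs, 97.1 to 126 in ey > wge discs and 287 to 484 in controls (change -3.16 ± 0.29, adjusted p = 1.12e-06). Ank2, a neuronal ankyrin, changed by -3.33 ± 0.33 (adjusted p = 3.72e-06), and X11Lbeta, a protein that binds Appl, by -3.63 ± 0.28 (adjusted p = 2.04e-07). The actin-bundling protein gene qua gave 106, 152 and 75.7 in allele-pair discs, 308, 277 and 252 in ey > wge discs and 961 to 1372 in controls (change -3.24 ± 0.17, adjusted p = 2.63e-09). The neural RNA-binding protein gene cpo changed by -3.21 ± 0.32 (adjusted p = 3.04e-06). The gene loaf (lost and found) changed by -3.26 ± 0.22 (adjusted p = 4.82e-08). The remaining 4 of the 15 were named only by number: CG31676, CG42788, CG13928 and CG2269 changed by -3.46, -3.42, -3.40 and -3.10. The translation elongation factor gene eEF1alpha2, a form found in neurons and muscle, belongs with these falls, at 239, 309.9 and 146 in allele-pair discs, 762, 767 and 501 in ey > wge discs and 1601 to 2613 in controls (change -3.07 ± 0.20, adjusted p = 3.35e-08).

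In the lists of mitochondrial ribosome, respiratory chain, cytosolic ribosome and proteasome genes, all members past the test were higher. Of 69 measured genes of the mitochondrial ribosome 36 rose and 0 fell, with a median of 0.46. By array the median was 0.11, 0.52 and 0.79, and with the span trend removed 0.38. The count was 29 with genotype weights, 40 after quantile normalization and 14 when a call without any 1 allele-pair array was asked for. Of 71 respiratory chain and ATP synthase genes 40 rose (median 0.45, by array 0.21, 0.47 and 0.66, with the span trend removed 0.37). The genotype weights gave 36 of these and the fits without 1 allele-pair array 20, and quantile normalization gave 37 higher in the list. Of 41 cytosolic ribosome genes 18 rose (median 0.37, with the span trend removed 0.31), 6 without any 1 allele-pair array. After quantile normalization the count was 4 and the median 0.04. Of 40 proteasome genes 15 rose (median 0.22, with the span trend removed 0.23), 7 without any 1 allele-pair array. After quantile normalization the count was 10 and the median 0.15. No gene of these 4 lists fell, and in ey > wge discs none was past the test in either direction. Array 1, whose trend with span was the weakest of the allele-pair arrays, had the lowest of the 3 medians in each of these lists. With the span trend removed, 31 mitochondrial ribosome, 36 respiratory chain, 9 cytosolic ribosome and 11 proteasome genes were higher. The part of span in these rises was not tested.

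The changes of single genes in these lists were small beside those given so far. The mitochondrial acyl carrier gene ND-ACP, a part of complex I, gave 4254, 5461 and 6704 in allele-pair discs, 3174, 3659.8 and 3113 in ey > wge discs and 2766 to 3167 in controls (change 0.86 ± 0.12, adjusted p = 0.000156). ATPsynepsilonL, an ATP synthase subunit gene, gave 294, 395 and 354 in allele-pair discs, 156, 147 and 132 in ey > wge discs and 92.3 to 192 in controls (change 1.40 ± 0.21, adjusted p = 0.000319). Changes of ATPsynO and ND-20 were 0.59 ± 0.10 and 0.61 ± 0.10 (adjusted p = 0.000521 and 0.000627), that of ATPsynO being 0.32 after quantile normalization. Among mitochondrial ribosomal proteins mRpS18C changed by 0.81 ± 0.14, mRpS11 by 0.77 ± 0.14 and mRpL20 by 0.76 ± 0.14 (adjusted p = 0.000753, 0.00144 and 0.0015), each with all 3 allele-pair arrays above the controls, while mRpL12 (change 0.78 ± 0.13, adjusted p = 0.000508) overlapped them. The proteasome core gene Prosbeta7 gave 11334, 14462 and 17513 in allele-pair discs and 7388 to 9219 in controls (change 0.81 ± 0.12, adjusted p = 0.000362), and the gene of the base ATPase Rpt5 changed by 0.61 ± 0.10 (adjusted p = 0.000608). The ribosomal protein genes RpL29 and RpL34a changed by 0.63 ± 0.12 and 0.55 ± 0.10 (adjusted p = 0.00229 and 0.00118), or by 0.28 and 0.33 after quantile normalization (adjusted p = 0.0284 and 0.0159). RpL32, often used as a reference gene, was higher too, at 47830.4, 50450.1 and 58946 in allele-pair discs and 33905 to 40523 in controls (change 0.48 ± 0.10, adjusted p = 0.00542, and 0.12 with an adjusted p of 0.394 after quantile normalization), the 1 gene past the test among 4 measured genes of that use.

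Among 45 translation factors 10 rose and 2 fell (median 0.15, with the span trend removed 0.18), 4 and 2 of them without any 1 allele-pair array, with eIF3e changed by 0.52 ± 0.10 (adjusted p = 0.00211) and eEF1delta by 0.60 ± 0.12 (adjusted p = 0.00232). After quantile normalization 6 translation factors were higher, and eIF3e and eEF1delta changed by 0.34 and 0.33. Of 9 measured heat shock and chaperone genes 5 rose and 0 fell, 2 with genotype weights, 1 after quantile normalization and 0 without any 1 allele-pair array. The mitochondrial chaperone gene Hsp60A gave 7236, 8559 and 11673 in allele-pair discs and 5553 to 7607 in controls (change 0.54 ± 0.13, adjusted p = 0.0113, 0.0913 without array 3 and 0.0814 without a trend in the variance prior), and the change was 0.36 after quantile normalization. Hsc70-4 changed by 0.41 ± 0.10 (adjusted p = 0.0147, 0.0616 without array 2 and 0.0796 without a trend in the variance prior), and after quantile normalization the value was 0.06 (adjusted p = 0.752).

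**Figure D5:**
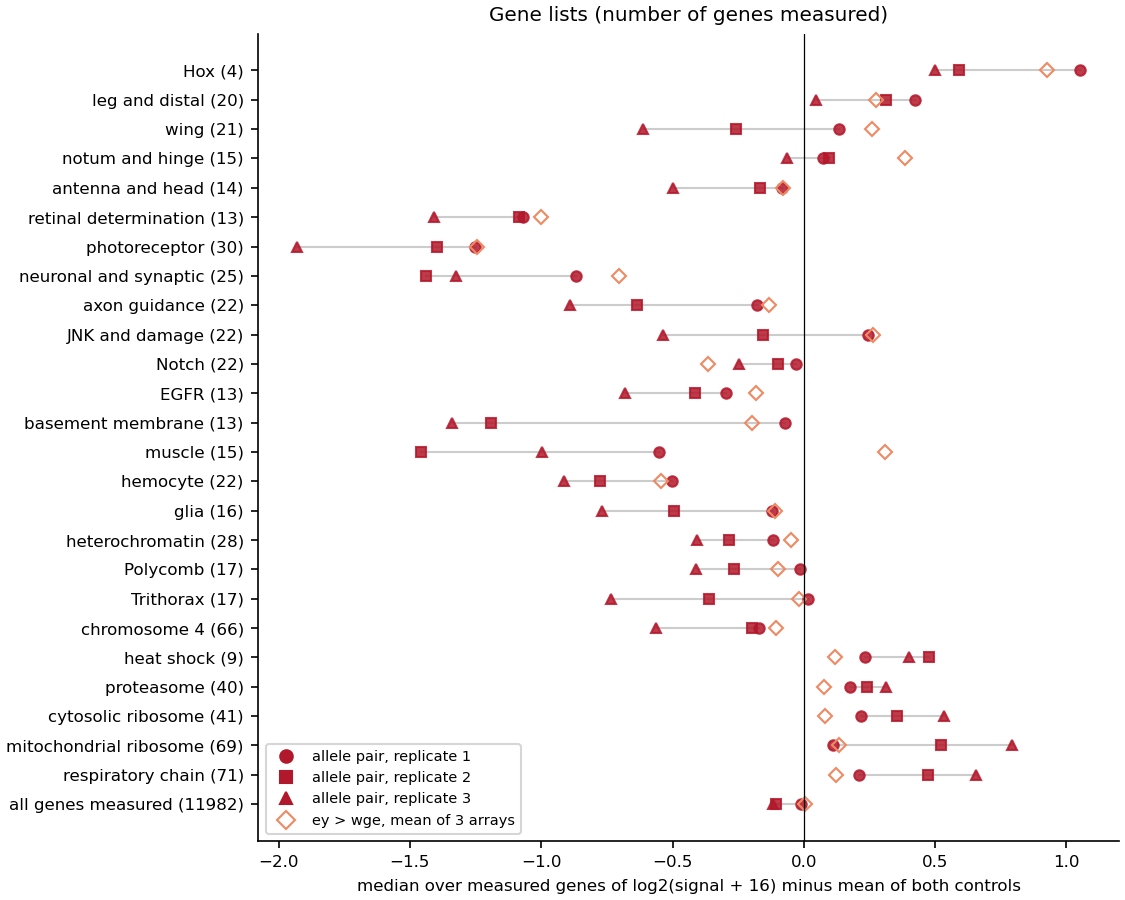
Median deviation from the control mean (log2, x axis) of gene lists described in the text (1 row per list, with its number of measured genes) on each allele-pair array (filled points) and of the mean of the ey > wge arrays (open diamond). The photoreceptor list lies at -1.25, -1.40 and -1.93 on the 3 arrays, and the mitochondrial ribosome list at 0.11, 0.52 and 0.79.

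Chromatin factors that passed the test were more often lower than higher, as were all genes (7.06% higher and 9.7% lower). Of 28 measured genes of heterochromatin and its silencing 5 rose and 12 fell, 5 and 8 of them with genotype weights and 1 and 3 without any 1 allele-pair array. After quantile normalization 3 were higher and 7 lower, and with the span trend removed 5 and 6. The median of the list was -0.27 (-0.12, -0.29 and -0.41 by array, -0.15 with the span trend removed). JIL-1, the kinase of histone H3 serine 10 whose loss lets heterochromatin spread, gave 177, 136 and 139 in allele-pair discs, 259, 248 and 255 in ey > wge discs and 286 to 369.6 in controls (change -1.02 ± 0.17, adjusted p = 0.000789). HP1c, a euchromatic member of the HP1 family, rose, with 1630.5, 1952 and 2271 in allele-pair discs, 1262, 1219 and 1133 in ey > wge discs and 1079 to 1350.5 in controls (change 0.68 ± 0.12, adjusted p = 0.000923; difference from ey > wge 0.68 ± 0.14, adjusted p = 0.0108). Su(var)2-HP2, a partner of HP1a, gave 747, 352 and 250 in allele-pair discs, 780.3 to 992 in ey > wge discs and 762 to 1057 in controls (change -1.14 ± 0.23, adjusted p = 0.00309). The zinc finger gene sov, needed for heterochromatin stability, changed by -1.20 ± 0.23 (adjusted p = 0.00207). For Su(var)2-HP2 and sov array 1 lay closest to the controls and arrays 2 and 3 well below.

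Of 17 Polycomb group genes 1 rose and 4 fell, and of 17 trithorax group genes 0 rose and 6 fell. Of these, 0 rises and 3 falls of the Polycomb list and 2 falls of the trithorax list were called without any 1 allele-pair array. With the span trend removed 1 Polycomb gene was higher and 3 lower, and 1 trithorax gene was higher and 3 lower. The Polycomb median was -0.20, and -0.15 with the span trend removed. Asx, a partner of the Polycomb deubiquitinase, changed by -0.79 ± 0.13 (adjusted p = 0.000472), Pcl by -0.81 ± 0.15 (adjusted p = 0.00138) and Jarid2 by -0.74 ± 0.16 (adjusted p = 0.00494), Pcl and Jarid2 being accessory subunits of the H3 lysine 27 methyltransferase complex. The H3 lysine 4 demethylase gene Kdm5 gave 2400.1, 1682 and 1648 in allele-pair discs, 3256, 2753 and 3138 in ey > wge discs and 2421 to 3809 in controls (change -0.82 ± 0.14, adjusted p = 0.000791). The chromodomain remodeller gene kis gave 7707, 2729 and 2256 in allele-pair discs and 7244 to 9532 in controls (change -1.20 ± 0.25, adjusted p = 0.00351), with array 1 inside the range of the controls and arrays 2 and 3 far below it. By array the median of the trithorax list was 0.02, -0.36 and -0.74, and with the span trend removed -0.15. Of 21 genes that lie in pericentric heterochromatin 4 rose and 2 fell, 1 and 0 of them without any 1 allele-pair array. Among them Marf1, a regulator of mRNA stability, gave 397, 195 and 119.8 in allele-pair discs, 104, 106 and 147 in ey > wge discs and 40.3 to 82.3 in controls (change 1.63 ± 0.33, adjusted p = 0.00298). Haspin, the kinase of histone H3 threonine 3, changed by 0.64 ± 0.14 (adjusted p = 0.00628), a call lost without array 3 (adjusted p = 0.0544) and without a trend in the variance prior (adjusted p = 0.0508).

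Chromosome 4, which is largely heterochromatic, had the highest share of falls among the chromosome arms. Of its 82 probe sets with a position, 8 were higher (9.76%) and 30 lower (36.6%), with a median of -0.25, against 5.63% to 6.90% higher and 8.20% to 10.2% lower on the other arms. Counted by gene, 7 of 66 rose and 23 fell, 15 of the falls without any 1 allele-pair array, and the median of -0.23 became -0.02 with the span trend removed. With that trend removed 9 of 65 genes were higher and 17 lower, beside 968 and 836 of 11892 genes in all. After quantile normalization 6 were higher and 21 lower, with a median of -0.28, beside 944 and 887 of all 11982 genes. The falls include ey and toy, which lie on this chromosome. They also include Ekar, a kainate-type glutamate receptor gene, with 196, 143 and 57 in allele-pair discs, 263, 207 and 211 in ey > wge discs and 674 to 1222 in controls (change -2.76 ± 0.25, adjusted p = 1.07e-06). The neuronal homeobox gene onecut gave 37.9, 46.9 and 46.1 in allele-pair discs, 51.8 to 129 in ey > wge discs and 254 to 582 in controls (change -2.82 ± 0.28, adjusted p = 3.72e-06). In ey > wge discs 6 of the 66 genes were lower than the controls and 0 higher, with a median of -0.11. Around Su(var)3-9 on 3R, 91 of the nearest 50 genes on each side had a probe set. Of these 8 were higher and 13 lower, 23.1% in all, beside 16.2% of the genes on 3R and 16.8% of all genes. Among the nearest 10 on each side 16 were measured, with 3 higher and 3 lower (37.5%). Against ey > wge discs, where the alleles are the labelled difference, 10 of the 91 (10.99%) passed the test, beside 4.14% on 3R and 4.26% of all genes. Among genes named in this text, ATPsynO, Hsc70-4 and CG42788 are such neighbours, at 2, -4 and -27 genes from Su(var)3-9. They differed from ey > wge by 0.40 (adjusted p = 0.0537), 0.21 (adjusted p = 0.406) and -2.58 (adjusted p = 0.00268). The part of their position in these changes was not tested.

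Markers of other tissues that a dissection can carry are given for each list as the range of their summed signal. For 22 blood cell genes the sums were 8411 to 12599 in allele-pair discs, 11384 to 12157 in ey > wge discs, 13029 to 14837 in ey-Gal4 discs and 28319 to 40485 in UAS-wge discs, and 10 genes fell with none higher, 8 of them without any 1 allele-pair array. The blood cell lectin gene Hml gave 437, 243 and 256 in allele-pair discs, 365, 468 and 349.8 in ey > wge discs, 694, 671 and 591 in ey-Gal4 discs and 1542, 2302 and 2042 in UAS-wge discs (change -1.85 ± 0.18, adjusted p = 3.07e-06). The control lines differed in 7 of the 10 called genes, with Hml higher in UAS-wge by 1.55 ± 0.21 (adjusted p = 0.000196), PPO1 by 1.65 ± 0.22 and PPO2 by 1.85 ± 0.17 (adjusted p = 0.000192 and 4.02e-06), the last 2 being genes of melanization enzymes in crystal cells. Against ey-Gal4 alone 5 blood cell genes were lower and 2 higher, and against UAS-wge alone 14 were lower and 1 higher.

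Basement membrane genes, made in part by blood cells and fat body, fell in 8 of 13 cases with none higher, 4 of them without any 1 allele-pair array. In 2 genes all 3 allele-pair arrays lay below all 6 control arrays. Against ey-Gal4 alone 3 were lower and against UAS-wge alone 9. The median was -0.85 (-0.61 with the span trend removed), with -0.07, -1.19 and -1.34 on arrays 1, 2 and 3. Papilin (Ppn), a proteoglycan-like matrix protein, gave 2734, 1772 and 1474 in allele-pair discs, 4242, 4295 and 3682 in ey > wge discs and 4523 to 6012 in controls (change -1.39 ± 0.15, adjusted p = 6.26e-06), and Mp, a collagen of the type XV and XVIII class, changed by -1.85 ± 0.21 (adjusted p = 1.31e-05). The perlecan gene trol gave 1132, 424 and 248 in allele-pair discs and 902 to 2216 in controls (change -1.51 ± 0.30, adjusted p = 0.00238), with array 1 inside the control range. The part of blood cells in these values was not tested.

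Muscle genes fell in 9 of 15 cases with none higher, and 5 of the called genes also differed between the control lines. Without any 1 allele-pair array 5 of the falls were called. The summed signal of the muscle list was 2961 to 6123 in allele-pair discs, 10619 to 12796 in ey > wge discs, 9829 to 22686 in ey-Gal4 discs and 5079 to 7062 in UAS-wge discs. Against ey-Gal4 9 were lower, against UAS-wge 1. The Z-disc gene Zasp66 gave 1129, 678 and 597 in allele-pair discs, 2490.4, 2038 and 2419 in ey > wge discs, 4073, 2429 and 3054 in ey-Gal4 discs and 897, 868 and 968 in UAS-wge discs (change -1.11 ± 0.18, adjusted p = 0.000486), so it overlapped UAS-wge. Of 16 glial genes 1 rose and 8 fell, 0 and 3 of them without any 1 allele-pair array, and the median of -0.43 became -0.15 with the span trend removed. The G protein signalling gene loco, active in glia and in the eye, gave 1039, 782 and 730.3 in allele-pair discs and 2129.7 to 2412 in controls (change -1.40 ± 0.12, adjusted p = 3.73e-07), and moody, a receptor gene of the blood-brain barrier glia, 349.7, 148 and 135 in allele-pair discs, 619.5, 514 and 767 in ey > wge discs and 524 to 627 in controls (change -1.50 ± 0.23, adjusted p = 0.000272). The glial factor repo changed by -1.19 ± 0.29 (adjusted p = 0.0109), a call lost without array 2 or array 3 (adjusted p = 0.0975 and 0.0607). Of 15 genes of neural stem cells and their progeny 0 rose and 6 fell, 0 and 3 of them without any 1 allele-pair array, and the median of -0.28 became -0.11 with the span trend removed. The lowest adjusted p was that of nerfin-1, a zinc finger gene of young neurons, with 234, 165 and 93.5 in allele-pair discs, 175 to 306 in ey > wge discs and 752 to 1217 in controls (change -2.53 ± 0.22, adjusted p = 7.7e-07).

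The genes of ecdysone synthesis mark the ring gland, which lies near the discs in the larva. Their summed signal was 3980.3 to 9272 in allele-pair discs, 11909 to 18927 in ey > wge discs, 7746 to 13115 in ey-Gal4 discs and 8969.7 to 30092 in UAS-wge discs, a wide spread within groups. Of 13 measured genes 1 rose and 4 fell, 1 and 0 of them without any 1 allele-pair array. The enzyme gene spok had 2061, 112 and 194 in allele-pair discs, 3068, 7044 and 3843 in ey > wge discs, 2797, 2852 and 1083 in ey-Gal4 discs and 1915, 3302 and 11685 in UAS-wge discs (change -2.95 ± 0.67, adjusted p = 0.00647). That call was lost without array 2 or array 3 (adjusted p = 0.0725 and 0.0571) and without a trend in the variance prior (adjusted p = 0.0542). The gene that rose, Cyp18a1, encodes an enzyme that inactivates ecdysone, and gave 326, 679.9 and 334 in allele-pair discs, 476, 247 and 395 in ey > wge discs and 93.4 to 140.2 in controls (change 1.80 ± 0.26, adjusted p = 0.000169). A dimmer Cyp18a1 probe set changed by 0.92 ± 0.35 and did not pass the test (adjusted p = 0.0956). Of 24 genes of the response to ecdysone 2 rose and 1 fell. They were ImpL1, given above, and MsrA, a methionine sulfoxide reductase gene (change 0.68 ± 0.13, adjusted p = 0.00254), and the fall was that of Eip93F (change -1.17 ± 0.37, adjusted p = 0.0468), lost without any 1 of 10 arrays, with ey > wge replicate 1 and allele-pair replicate 3 the exceptions (adjusted p between 0.0508 and 0.255). It was also lost with genotype weights (adjusted p = 0.105), after quantile normalization (adjusted p = 0.0679) and with the span trend removed (adjusted p = 0.146), and the change was -2.26 or -0.53 with a pseudocount of 1 or 64.

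The remaining lists held few calls by number, though not always by share. In the myoblast list 37.5% were lower, and in the fat body list 15.4% were higher and 15.4% lower. Over all genes these shares were 7.06% higher and 9.7% lower. Of 13 fat body genes 2 rose and 2 fell, with summed signals of 3176 to 6190.4 in allele-pair discs, 4786 to 5333 in ey > wge discs and 4728 to 6379 in controls. Of 8 myoblast genes 0 rose and 3 fell, of 10 tracheal genes 1 and 1, and of 12 gut genes 1 and 0. No gene of 11 salivary gland genes or 11 antimicrobial genes passed the test; the smallest adjusted p was 0.106 for fkh (below the threshold without array 2, at 0.0352) and 0.23 for Drsl5. The summed signals in allele-pair discs and in controls were 8046 to 8194 and 6049 to 9431 for myoblasts, 26469 to 31155 and 30223 to 32203 for trachea, 1612 to 3034 and 1049 to 1596 for gut, 228 to 419 and 390.4 to 509.6 for salivary gland, 46519 to 58216 and 58752 to 69103 for glia and 9978 to 16939 and 15109.7 to 19966 for neuroblasts. Of 23 cell cycle genes 1 rose and 2 fell, with the G1 cyclin gene CycD at a change of -0.55 ± 0.11 (adjusted p = 0.00236), and of 12 apoptosis genes 1 rose and 1 fell. Among larger families 3 of 110 cuticle genes rose and 4 fell, as did 12 and 6 of 152 detoxification genes, 0 and 2 of 43 serpin and protease genes, and 1 and 9 of 236 chemosensory and Osiris genes. The rises and falls called without any 1 allele-pair array were 0 and 1 fat body, 0 and 1 myoblast, 0 and 1 tracheal, 1 and 0 gut, 0 and 1 cell cycle, 0 and 0 apoptosis, 2 and 1 cuticle, 7 and 2 detoxification, 0 and 2 serpin and protease and 1 and 4 chemosensory and Osiris genes. In the detoxification list GstE1 gave 1208, 1417 and 1659 in allele-pair discs, 1642, 1033 and 1231 in ey-Gal4 discs and 86.4, 132 and 219 in UAS-wge discs, a change of 1.69 ± 0.22 (adjusted p = 6.2e-05) beside a line difference of -3.08 ± 0.25 (adjusted p = 8.79e-07). Of the called genes of that list 8 differed between the lines, another being Ugt302K1 (change 0.91 ± 0.15, line difference -2.40 ± 0.17), while GstZ2 was below both lines, with 55.1, 56.4 and 37.5 in allele-pair discs and 166 to 347 in controls (change -2.09 ± 0.25, adjusted p = 2.77e-05).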

How the data were processed

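RNA from eye-antennal discs was hybridized to 12 Affymetrix arrays, 3 for each of 4 genotypes. The authors deposited 1 linear signal intensity for each of 18952 probe sets and array, made with MAS5 (no version given) per the submitters' processing notes. The number of arrays limits the precision, detection calls were not used, and no batch is recorded. The 183 control probe sets were left out, and the other 18769 were analysed as log2(signal + 16) with no filter or further normalization. A linear model with a mean for each of the 4 genotypes took in all 12 arrays, with limma 3.58.1 in R 4.3.3 (lmFit, eBayes with a trend). The main contrast was the allele pair minus the average of the ey-Gal4 and UAS-wge means. Tests were two-sided, with Benjamini-Hochberg adjustment over all probe sets and a threshold of 0.05, and every adjusted p in the text comes from limma. Changes are given ± SE. The code was tested on simulated data. That check set a limit on false calls where all genotypes shared 1 spread, and where genotype weights were used. It set none for the unweighted fit at the measured spreads of the genotypes, and the main values come from an unweighted fit. Nothing in the labels says whether the biological replicates were separate crosses, so p-values rest on the spread between these samples. For each probe set that spread was 1 estimate shared by all 4 genotypes. The median SD was 0.36 in allele-pair discs and 0.23 to 0.25 in the other genotypes. The main SE and p-values can therefore understate the spread of the allele-pair arrays. With genotype weights 1957 probe sets were called, beside 2583.

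Symbols came from the platform annotation: 13647 probe sets carry 1 symbol, 401 several and 4721 none, and the 1-symbol probe sets cover 11982 genes. Of these probe sets 13543 matched a supplied table of Drosophila genes, which gave spans and chromosome arms. Probe sets without a single symbol enter the counts only. In the 48 lists a gene with several probe sets is represented by the brightest on average. Dimmer probe sets of named genes are not all given. Those of gogo, futsch, Mmp2, Mp and Marf1 did not pass the test. Those of toy passed, and Ank2, cpo and trol had dimmer ones of both kinds. Named are wge and ey, then the 15 higher and 15 lower genes with the largest change whose 3 allele-pair arrays all lie outside the range of the 6 control arrays, then, from each list, at most 4 genes past the test, taken in order of adjusted p (or 1 where none passed). The tissue markers eya, ato, Dll and ss are also named. The members and lists were chosen with earlier results of these data known. Same-numbered replicates did not deviate together (correlations between -0.0408 and 0.0589 over group pairs), so replicate numbers were not used as pairs.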

Additional observations from a re-analysis of the deposited data

How the results depend on the processing

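The count of 2583 changed probe sets (1055 higher, 1528 lower, 1108 the same way against each control) moved by over 1.5 times under some settings. Without a trend in the variance prior it was 1492 (470 higher, 547 the same way against each control). With a weight for each array, which gave allele-pair arrays 1, 2 and 3 weights of 0.343, 2.83 and 0.485, it was 4756 (1972 higher, 2784 lower, 2530 the same way). At a change of at least 2-fold it was 830 (153 higher, 677 lower, 435 the same way), and at an adjusted p under 0.01 it was 1320 (505 higher, 815 lower, 483 the same way). The cause of these moves was not tested, apart from the stricter thresholds, which select by construction. With the gene span trend removed 944 were lower, and 1405 of the same probe sets with the trend kept, a setting chosen after seeing the data. Leaving out 1 array in turn gave 1381 to 3895 changed, 554 to 1612 higher, 826 to 2283 lower and 607 to 2437 the same way. The lowest and highest came without an allele-pair array (array 3 or 2 for the lowest, array 1 for the highest). Without UAS-wge replicate 1 or 2 the same-way count was 716 or 695. With the replicate number as a block the counts were 2678 changed, 1125 higher, 1553 lower and 1210 the same way, and the numbers do not pair the samples. The other settings tried (quantile normalization, centred medians, pseudocounts of 1 and 64, filters at the 40th and 60th percentile, genotype weights, only the 9 arrays compared) kept these counts within 1.5 times. Of 4268 values of 171 named results under other settings, 4044 kept direction and side of the threshold, 216 lost the call, 8 gained it and 0 changed direction. The largest numbers of lost calls came without a trend in the prior (33) and without allele-pair array 3 (29) or 2 (28). Signals near the median of an array are close to background, so the size of changes between dim groups depends on the pseudocount.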
